A study of Mus musculus with 8 samples.

Results

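The heat shock proteins and DnaJ chaperones of the mouse testis were described by RNA sequencing of 8 libraries, of which 4 carried a knockout label for Ak9 and 4 a wild-type label. Members were the genes whose symbols begin with Hspa, Hspb, Hspd, Hspe or Hsph and a number, with Hsp90, or with Dnaja, Dnajb or Dnajc and a number. Of 86 rows of the count table that matched, 14 were annotated or named as pseudogenes and were removed, which left 72 genes of 56748 gene identifiers. They were 11 HSP70 genes, 3 HSP110 genes, 3 HSP90 genes, 2 mitochondrial chaperonin genes and 8 small heat shock protein genes. The rest were 4 Dnaja, 13 Dnajb and 28 Dnajc genes. Small heat shock protein genes were taken by the symbol Hspb alone, whatever the protein, so Hspb11 is counted among them. The rule itself reads symbols only, and it was proposed with earlier results of these data known.

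The knockout libraries carry the genotype label Ak9-/- and the others the label WT, and both groups are labelled adult testis. AK9 is an adenylate kinase, one of the enzymes that interconvert adenine nucleotides. The labels name no treatment, strain or exact age, and the sources used here give neither the way the Ak9 allele was made nor a link from library to animal. The p-values below therefore rest on library-to-library spread, and part or all of that spread may be technical.

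HSP70 proteins bind unfolded stretches of other proteins in a cycle driven by ATP, J-domain proteins of the DnaJ family bring clients to them and start the ATP hydrolysis, and HSP110 proteins exchange the nucleotide. HSP90 acts later on more folded clients, small heat shock proteins hold clients without ATP, and the chaperonin HSPD1 with its lid HSPE1 folds proteins inside mitochondria. Most tissues raise a stress-inducible subset through the transcription factor HSF1. The testis is known for germ cell members that are made during meiosis and spermatid development without stress, among them HSPA2 of spermatocytes, HSPA1L of spermatids, HSPA4L, the spermatid J protein DNAJB3, and DNAJB13 of the sperm axoneme.

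The binding site of HSF1, the heat shock element, alternates GAA and TTC units 2 bases apart, and the promoters below show where such letters stand in the stress-inducible genes and where they do not. RefSeq promoters (build GRCm38.p6, 250 bases before to 50 after each transcript start) were found for 58 of the 72 members. An element of 3 units, GAA, 2 bases, TTC, 2 bases and GAA on either strand, stood in the promoters of 4 of these 58 members (6.9%), against 0.662% of all 27025 genes in the table. The 4 were Hspd1, Hspe1, Hsph1 and Dnajb6, and Hspd1 and Hspe1 face away from each other on chromosome 1 and share the element. Each 3-unit element holds both shorter pairs. The pair GAANNTTC stood in 14 of 58 members (24.1%, against 9.04% of all genes), and the pair TTCNNGAA in 6 of 58 (10.3%, against 9.6%). Of the stress-inducible members in the table, 7 of 9 held GAANNTTC. Of the germ cell members, 0 of 5 held any of the 3 motifs within this window. A match of letters is a description and not a binding site. The promoters follow 5′ to 3′ on the strand of the gene, with the matched elements and pairs in capitals.
Hsph1 (chr5:149636287-149636586, minus strand): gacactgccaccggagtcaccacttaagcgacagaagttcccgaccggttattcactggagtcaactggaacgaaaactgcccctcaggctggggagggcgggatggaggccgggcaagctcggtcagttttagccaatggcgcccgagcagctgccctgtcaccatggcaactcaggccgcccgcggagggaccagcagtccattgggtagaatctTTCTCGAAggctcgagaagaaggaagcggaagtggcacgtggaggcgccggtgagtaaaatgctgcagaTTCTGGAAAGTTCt
Hspd1 (chr1:55087883-55088182, minus strand): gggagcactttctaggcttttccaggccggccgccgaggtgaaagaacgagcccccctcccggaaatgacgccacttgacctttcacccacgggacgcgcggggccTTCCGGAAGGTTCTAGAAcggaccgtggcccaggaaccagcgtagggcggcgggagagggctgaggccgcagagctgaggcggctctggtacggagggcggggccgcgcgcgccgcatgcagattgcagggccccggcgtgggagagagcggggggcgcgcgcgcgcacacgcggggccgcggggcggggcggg
Dnajb6 (chr5:29735648-29735947, plus strand): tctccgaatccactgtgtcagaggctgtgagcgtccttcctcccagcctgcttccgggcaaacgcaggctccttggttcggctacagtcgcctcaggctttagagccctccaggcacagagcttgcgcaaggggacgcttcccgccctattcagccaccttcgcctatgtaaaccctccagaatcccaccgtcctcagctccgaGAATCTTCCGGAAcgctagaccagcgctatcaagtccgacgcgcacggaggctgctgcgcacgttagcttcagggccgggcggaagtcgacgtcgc
Hspa1b (chr17:34959189-34959488, minus strand): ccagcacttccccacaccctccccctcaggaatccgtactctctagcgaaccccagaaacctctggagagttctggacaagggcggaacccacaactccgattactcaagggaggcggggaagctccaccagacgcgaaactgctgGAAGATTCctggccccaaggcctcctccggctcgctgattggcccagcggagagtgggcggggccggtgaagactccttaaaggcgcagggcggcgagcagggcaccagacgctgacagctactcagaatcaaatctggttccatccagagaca
Dnajc5g (chr5:31108069-31108368, plus strand): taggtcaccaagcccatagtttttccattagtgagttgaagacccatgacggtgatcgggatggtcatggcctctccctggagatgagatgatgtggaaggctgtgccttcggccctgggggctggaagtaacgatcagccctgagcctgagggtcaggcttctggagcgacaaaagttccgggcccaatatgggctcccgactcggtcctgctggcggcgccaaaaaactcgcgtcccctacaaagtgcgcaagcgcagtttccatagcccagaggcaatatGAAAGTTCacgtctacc
Hspa2 (chr12:76404120-76404419, plus strand): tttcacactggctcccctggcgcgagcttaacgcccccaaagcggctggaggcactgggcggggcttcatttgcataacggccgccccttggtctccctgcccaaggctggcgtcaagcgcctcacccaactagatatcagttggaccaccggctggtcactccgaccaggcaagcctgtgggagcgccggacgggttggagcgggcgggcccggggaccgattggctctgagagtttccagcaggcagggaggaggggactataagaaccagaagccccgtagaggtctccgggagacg
Hsph1, Hspd1 and Dnajb6 are shown for the 3-unit element, which begins at base -144 from the start in Hspd1 and at base -46 in Dnajb6, and lies 36 bases after the start in Hsph1. Each of these genes has a second start in the table, and there the element begins at base -127 in Dnajb6, at base 15 in Hsph1 and is not in the window of Hspd1. Hspa1b is shown for its single pair at base -104, and the Hspa1a promoter differs from it at 4 of 300 positions with the same pair at the same place. Dnajc5g is the member with the smallest p-value below, and Hspa2 is shown as a germ cell member whose promoter has none of these motifs. The last 50 bases of each other promoter shown were found in a GENCODE M21 coding transcript of its gene. Those of Hspa2 were not, so its start was not matched to an annotated transcript.

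Library totals ran from 18062780 to 24415587 counts. Values in the text are CPM, counts scaled to an equal library size with TMM factors, and fold changes are log2, knockout over wild type, from edgeR's quasi-likelihood test with Benjamini-Hochberg adjustment over all 21805 genes tested. The limit that no counts would leave was 0.123 to 0.166 CPM by library (3 counts over the total), for counting error only. Ak9 itself measured 69.3, 116, 101 and 40.6 CPM in labelled knockouts 1 to 4, against 108, 115, 122 and 107 CPM in wild types 1 to 4. Labelled knockout 2 stood inside the wild types' range and the Ak9 difference did not pass (log2 fold change -0.47, SE 0.25, edgeR adjusted p = 1), so the groups are called labelled knockout and wild type throughout. The labelled tissue showed in its markers, since all 7 round spermatid, 10 elongating spermatid, 7 spermatocyte, 8 Sertoli and 7 Leydig genes had counts in every library. The libraries labelled knockout differed among themselves. Elongating spermatid markers summed to 19345, 15664, 8145 and 19901 CPM in labelled knockouts 1 to 4, against 12940 to 16343 CPM in wild types, and Sertoli markers to 1145, 1536, 2094 and 1068 CPM, against 1484 to 1649 CPM in wild types. Markers of the epididymis, the duct beside the testis, summed to 215 CPM in labelled knockout 3 and 36.0 CPM in labelled knockout 4, against 4.69 and 4.25 CPM in the other labelled knockouts and 5.30 to 7.80 CPM in wild types, and 1 of these 7 genes passed the filter. In a whole tissue, fewer cells of a type and less RNA per cell cannot be told apart.

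Of the 72 members, 70 passed the filter on low counts and 0 were called between the groups, against a background of 0.0183% of all genes tested (4 of 21805). Below an unadjusted p of 0.05 came 2 of 70 members, where 3.04% of all genes tested did. Dnajc5g was on the higher side (1.25% of all genes) and Hspa8 on the lower side (1.79% of all genes) in the libraries labelled knockout. DESeq2 and limma-voom also called 0 members, and DESeq2 0.211% of all genes. The edgeR adjusted p was 1 for every member tested. Log2 fold changes of the 70 members ran from -0.31 to 0.49 with a median of 0.04, against a median of 0.01 over all genes tested, and the SE of a member was 0.09 to 0.32 with a median of 0.13. The 2 members below the filter were the muscle-type small heat shock protein genes Hspb2, at 1 to 9 counts per library, and Hspb3, at 0 to 4 counts. Together the 72 members took 1.32% to 1.37% of the counts of a labelled knockout and 1.29% to 1.37% of those of a wild type. At the TMM scaling they summed to 14222, 13758, 11776 and 15032 CPM in labelled knockouts 1 to 4, against 12971 to 13312 CPM in wild types, so that labelled knockout 3 was below and the other labelled knockouts above every wild type. That order depends on the scaling, whose factors were 0.932, 0.998, 1.125 and 0.903 in labelled knockouts 1 to 4. By share of counts, labelled knockouts 1, 3 and 4 stood inside the wild types' range.

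**Figure D1:**
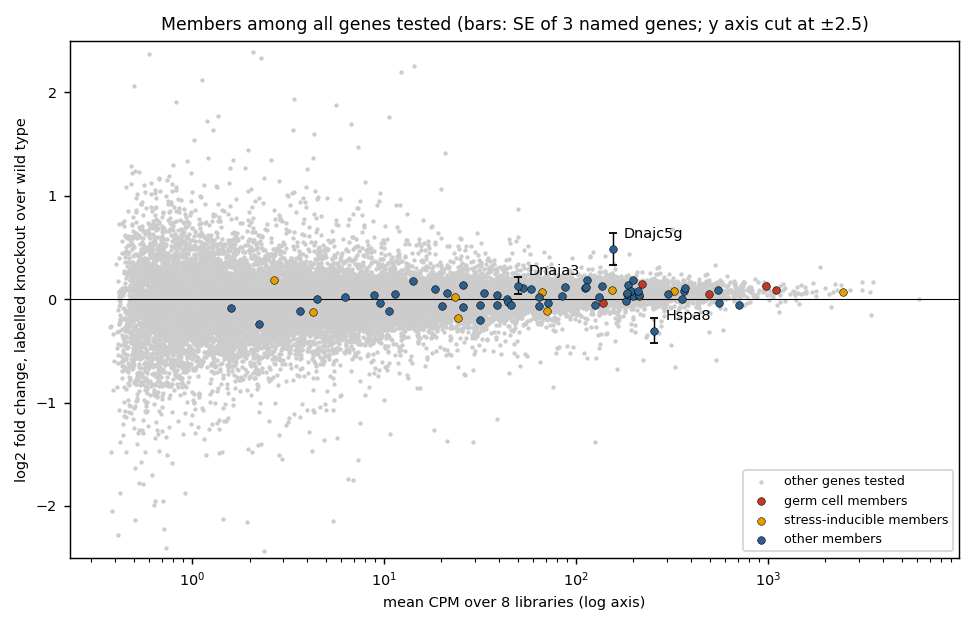
Log2 fold change, labelled knockout over wild type (vertical axis, cut at ±2.5), against mean CPM over 8 libraries (horizontal log axis) for all genes tested in grey and the 70 members tested in colour, with SE bars on 3 named genes. The members lie within -0.31 and 0.49, with Dnajc5g the highest and Hspa8 the lowest.

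Dnajc5g encodes a testis-rich relative of the cysteine string proteins, J-domain proteins known from vesicle release. It measured 141, 199.8, 154 and 238 CPM in labelled knockouts 1 to 4, against 130.1, 129, 138 and 126 CPM in wild types 1 to 4. All 4 labelled knockouts were above the highest wild type, with labelled knockouts 2 and 4 the highest. The log2 fold change was 0.49 (SE 0.15, n = 4 per group, edgeR unadjusted p = 0.00913 and adjusted p = 1). Its relatives did not share this order. Dnajc5b, the other testis-rich cysteine string gene, stood at 231, 234, 102 and 234 CPM in labelled knockouts, against 187, 186, 210.4 and 201 CPM in wild types, with labelled knockout 3 at 51.9% of the wild-type mean. Dnajc5, the form of neurons and other cells, stood at 42.1, 43.1, 57.2 and 38.8 CPM in labelled knockouts and 47.9, 49.6, 45.9 and 44.9 CPM in wild types.

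Hspa8 encodes HSC70, the constitutive HSP70 of all cells. It measured 243, 232, 263 and 182 CPM in labelled knockouts 1 to 4, against 281, 299, 274 and 283 CPM in wild types 1 to 4. All 4 labelled knockouts were below the lowest wild type, with labelled knockout 4 the lowest at 63.9% of the wild-type mean. The log2 fold change was -0.31 (SE 0.12, n = 4 per group, edgeR unadjusted p = 0.0298 and adjusted p = 1). Without labelled knockout 4 it was -0.21. In the GENCODE M21 annotation, 3 small nucleolar RNA genes overlap Hspa8 exons by 86, 86 and 90 bases.

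The groups of Dnaja3, a J protein of mitochondria, did not overlap either. It stood at 51.5, 53.7, 49.3 and 55.5 CPM in labelled knockouts, against 48.8, 48.4, 47.7 and 46.7 CPM in wild types, a log2 fold change of 0.13 (SE 0.09, edgeR unadjusted p = 0.152 and adjusted p = 1). Exons of Vasn on the same strand and of Coro7 on the other overlap 160 and 153 bases of it. The 3 members without overlap stand beside 2.3% of all genes tested (501 of 21805), 2 members above beside 0.981% and 1 below beside 1.32%.

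The 5 germ cell members had log2 fold changes from -0.03 to 0.15 with a median of 0.09, and 0 of 5 passed the test at an unadjusted p under 0.05. Hspa2, needed for spermatocytes to finish meiosis, measured 1275.5, 956, 1073 and 1249.8 CPM in labelled knockouts 1 to 4, against 1099.5, 1048, 1049 and 1094 CPM in wild types 1 to 4. Labelled knockouts 1 and 4 were above every wild type and labelled knockout 2 was the lowest library, while labelled knockout 3 stood at 100% of the wild-type mean. The log2 fold change was 0.09 (SE 0.13).

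Hspa4l, an HSP110 nucleotide exchange factor abundant in germ cells, stood at 1089, 1039.6, 747 and 1240.5 CPM in labelled knockouts, against 911, 923, 984 and 959 CPM in wild types. Labelled knockouts 1, 2 and 4 lay above every wild type and labelled knockout 3 below every one. Hspa1l, an HSP70 of spermatids, stood at 156, 121, 79.6 and 195 CPM in labelled knockouts, against 152, 134, 138 and 139.8 CPM in wild types. Labelled knockout 3 was at 56.5% and labelled knockout 4 at 138% of the wild-type mean, so the group means differed by less than the spread among the labelled knockouts (138 ± 49.3 and 141 ± 7.84 CPM, SD, n = 4 each). An antisense gene overlaps 1778 bases of Hspa1l exons in the M21 annotation. The sources used here do not give the strand setting of the counting, so reads from such a stretch could belong to either gene.

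Dnajb3 (MSJ-1), a J protein of spermatids, stood at 599.8, 437, 336 and 646 CPM in labelled knockouts and 539, 429, 471 and 515 CPM in wild types. Dnajb13, a radial spoke protein of the sperm tail, stood at 274, 253, 136 and 266 CPM in labelled knockouts, against 219, 186, 216 and 216 CPM in wild types. For Dnajb13, labelled knockouts 1, 2 and 4 lay above every wild type and labelled knockout 3 below every one (log2 fold change 0.15, SE 0.19). Ucp2 overlaps 305 of 2732 exon bases of Dnajb13 on the other strand, where reads could be shared.

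**Figure D2:**
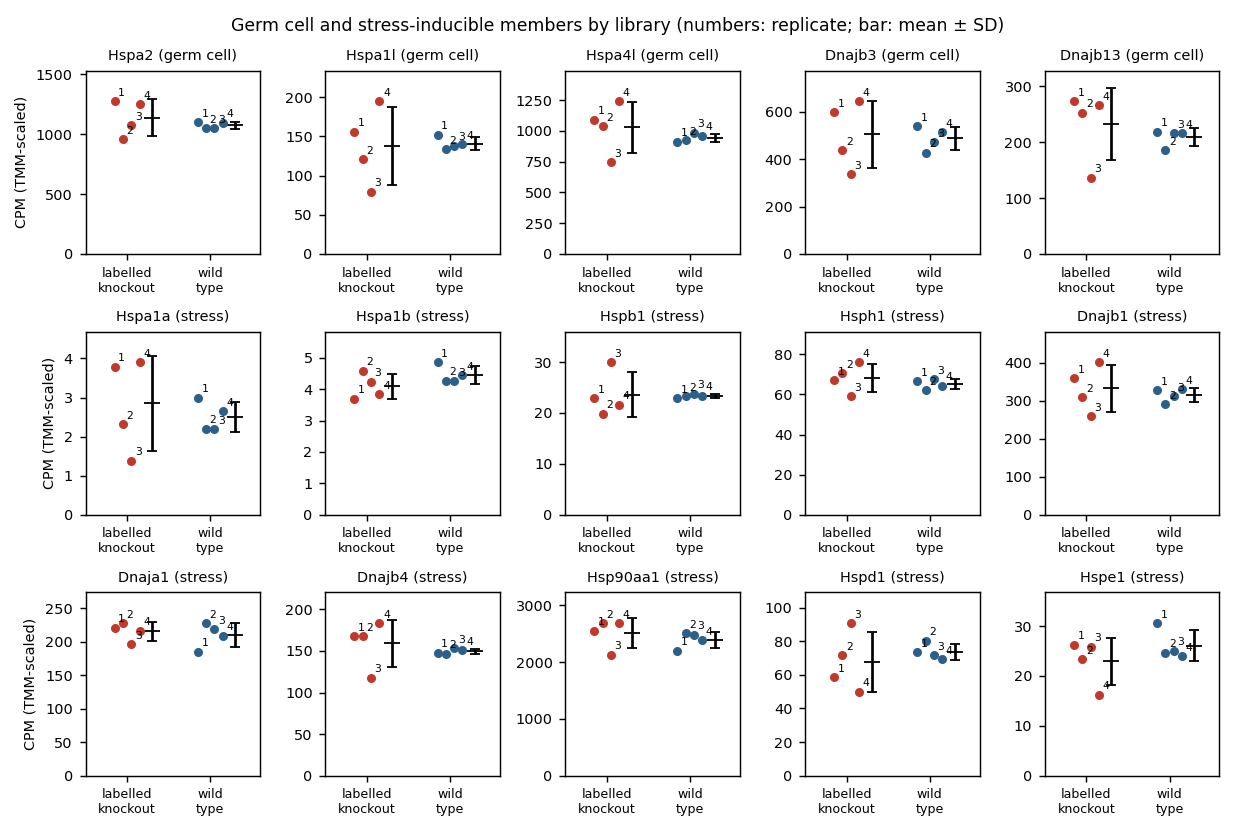
CPM (vertical axes, from 0) of the 5 germ cell members in the upper row and the 10 stress-inducible members in the lower rows, for each labelled knockout (left) and wild type (right), with replicate numbers and the mean ± SD of 4 libraries. In each panel the groups overlap. Labelled knockout 3 is the lowest library for the germ cell members Hspa1l, Hspa4l, Dnajb3 and Dnajb13. It is also the lowest for the stress-inducible members Hspa1a, Hsph1, Dnajb1, Dnajb4 and Hsp90aa1, and the highest for Hspb1 and Hspd1.

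Hspb9, Dnajb7 and Dnajb8 are further members known as testis-rich, besides Dnajc5b and Dnajc5g above. Hspb9, a small heat shock protein of germ cells, stood at 658, 599.9, 326 and 691 CPM in labelled knockouts, against 561, 471, 549.7 and 565 CPM in wild types. Dnajb7 stood at 165, 167, 70.6 and 167 CPM in labelled knockouts, against 129, 122, 139 and 133 CPM in wild types. Dnajb8, whose protein holds back aggregation, stood at 106, 88.7, 48.8 and 125 CPM in labelled knockouts, against 82.2, 81.5, 90.0 and 85.4 CPM in wild types. In each of these 3 genes labelled knockout 3 was below every wild type and labelled knockouts 1, 2 and 4 were above every one, except that Dnajb8 in labelled knockout 2 did not leave the range of the wild types. Reads of Dnajb8 could be shared with an antisense gene that overlaps 525 bases of its exons.

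The stress-inducible list held Hspa1a, Hspa1b, Hspb1, Hsph1, Dnajb1, Dnaja1, Dnajb4, Hsp90aa1, Hspd1 and Hspe1. Of these 10 genes 0 were called and 0 passed at an unadjusted p under 0.05, with log2 fold changes from -0.19 to 0.18 and a median of 0.05. The classical heat shock genes Hspa1a and Hspa1b, barely used in unstressed cells, had few counts in both groups. Hspa1a stood at 3.79, 2.32, 1.38 and 3.91 CPM in labelled knockouts, against 2.99, 2.20, 2.18 and 2.65 CPM in wild types. Hspa1b stood at 3.70, 4.58, 4.24 and 3.85 CPM in labelled knockouts, against 4.86, 4.27, 4.25 and 4.45 CPM in wild types. In addition, 564 bases of Hspa1a exons overlap a gene on the other strand. The coding sequences of Hspa1a and Hspa1b are 99.4% identical (1918 of 1929 aligned positions, with a shared run of 638 bases), so reads could be split or dropped between them and each value is uncertain. Summed to 1 gene, the pair had a log2 fold change of -0.004.

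Dnajb1, the main J partner of inducible HSP70, stood at 359, 309, 259.9 and 402 CPM in labelled knockouts, against 328, 291, 312 and 329.5 CPM in wild types. Hsph1 (HSP110), which carries a 3-unit element, stood at 66.9, 70.5, 59.2 and 76.1 CPM in labelled knockouts, against 66.5, 62.1, 67.4 and 64.3 CPM in wild types. For both genes labelled knockout 4 was the highest library and labelled knockout 3 the lowest. Hspb1 (HSP25), a small heat shock protein of many cell types, ran the other way, at 22.9, 19.9, 30.0 and 21.6 CPM in labelled knockouts, against 22.9, 23.3, 23.7 and 23.4 CPM in wild types, with labelled knockout 3 at 129% of the wild-type mean. Dnaja1 and Dnajb4, J proteins of the cytosol, differed by 0.03 (SE 0.10) and 0.09 (SE 0.13) in log2 fold change.

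The chaperonin pair Hspd1 and Hspe1, which share a promoter region, were low together in labelled knockout 4. Hspd1 stood at 58.7, 71.8, 90.9 and 49.9 CPM in labelled knockouts, against 73.6, 80.4, 71.6 and 69.2 CPM in wild types. Hspe1 stood at 26.2, 23.3, 25.9 and 16.2 CPM in labelled knockouts, against 30.6, 24.7, 25.1 and 23.9 CPM in wild types. Labelled knockout 4 was at 67.7% of the wild-type mean for Hspd1 and 62.1% for Hspe1, and labelled knockout 3 was the highest library for Hspd1 only. Labelled knockout 4 was also the lowest library for Hspa8 and for the sums of Leydig, Sertoli, spermatogonia and peritubular markers. The 7 Leydig cell markers summed to 1674, 1586, 1987 and 898 CPM in labelled knockouts 1 to 4, against 1801 to 2116 CPM in wild types. In labelled knockout 4 spermatogonia markers summed to 132 CPM and peritubular markers to 90.3 CPM. All 7 Leydig, 9 spermatogonia, 5 endothelial and 5 macrophage genes had a log2 fold change below 0. So did 5 of 8 Sertoli genes, while all 5 peritubular genes were above 0. The part of the cell types in the 3 members' values was not tested. Hspd1 had a log2 fold change of -0.12 (SE 0.16) and Hspe1 one of -0.19 (SE 0.16), and their exons overlap by 112 bases on opposite strands.

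The HSP90 genes were the cytosolic Hsp90aa1 and Hsp90ab1 and the endoplasmic reticulum form Hsp90b1. Hsp90aa1, the form that mouse spermatocytes need, was at 2556, 2687, 2133 and 2692 CPM in labelled knockouts, against 2199, 2512, 2484 and 2389.6 CPM in wild types. Hsp90ab1, the form of most other cells, stood at 309, 341, 470.1 and 308 CPM in labelled knockouts, against 354, 377, 343 and 351 CPM in wild types. Labelled knockout 3 was the lowest library for Hsp90aa1 and the highest for Hsp90ab1. In log2 fold change Hsp90aa1 was at 0.07 (SE 0.13) and Hsp90ab1 at 0.00 (SE 0.14).

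Listed members of the endoplasmic reticulum, some of them known targets of the unfolded protein response, showed no call. The list was made by compartment and not by that response. Hspa5 (BiP), the HSP70 of this compartment, stood at 625, 704, 802 and 650.0 CPM in labelled knockouts, against 691, 788, 709.5 and 705 CPM in wild types. The 7 listed members were Hspa5, Hsp90b1, Dnajb9, Dnajb11, Dnajc1, Dnajc3 and Dnajc10. Their log2 fold changes ran from -0.07 to 0.11 with a median of -0.03 and an SE of 0.10 to 0.13. Dnajb14, named below as a J protein of the endoplasmic reticulum membrane, was not on this list and stood at 0.19. The 7 mitochondrial members Hspa9, Dnaja3, Dnajc15, Dnajc19, Dnajc11, Dnajc28 and Dnajc30 ran from -0.06 to 0.14 with a median of 0.05. Hspa9 (mortalin), the HSP70 of mitochondria, was among the steadiest, at 303, 303, 293 and 327 CPM in labelled knockouts, against 298, 301, 293 and 293 CPM in wild types. Dnajc15, a J protein of the inner membrane, stood at 236, 217, 123 and 207 CPM in labelled knockouts, against 189, 166, 176 and 180.3 CPM in wild types, with labelled knockout 3 below every wild type and the other labelled knockouts above every one.

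By family, all 13 Dnajb, 4 Dnaja and 3 HSP110 genes had log2 fold changes above 0, with medians of 0.09, 0.05 and 0.11. The 28 Dnajc genes had 16 above 0 and a median of 0.02, the 11 HSP70 genes 5 above 0 and a median of -0.02, and the 6 small heat shock protein genes tested 4 above 0 and a median of 0.03. Of all genes tested, 52.9% were above 0. The members with the next smallest p were Dnajb14, Dnajc21 and Hspb6 on the higher side and Hspb7, Hspe1, Dnajc6 and Hspa1b on the lower side. Hspb7, a small heat shock protein of muscle, stood at 33.3, 24.3, 30.4 and 30.5 CPM in labelled knockouts, against 33.3, 31.4, 34.3 and 37.0 CPM in wild types (log2 fold change -0.20, SE 0.12). Dnajb14, a J protein of the endoplasmic reticulum membrane, stood at 232, 232, 151 and 237 CPM in labelled knockouts, against 189, 175, 188 and 196 CPM in wild types (log2 fold change 0.19, SE 0.14).

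Among the remaining members the groups also overlapped. Dnajb6, a J protein that holds back aggregates and whose promoter has the 3-unit element, was at 396, 353, 315 and 438 CPM in labelled knockouts and 355, 351, 353 and 361 CPM in wild types. Dnaja2, a J protein of the cytosol, was at 181, 188, 178 and 206 CPM in labelled knockouts and 170.3, 187, 184 and 180.0 CPM in wild types. Dnaja4 was at 257, 206, 137 and 270.1 CPM in labelled knockouts and 222, 195, 209 and 218 CPM in wild types, so that labelled knockout 3 was again the lowest library, and 1581 bases of its exons overlap Wdr61 on the other strand. The HSP70 relatives Hspa12a, Hspa12b, Hspa13 and Hspa14 had log2 fold changes of -0.05, 0.02, -0.02 and 0.06. Few counts were found for Dnajc6, the auxilin that uncoats clathrin vesicles in neurons, at 1.04 to 2.61 CPM in labelled knockouts and 2.06 to 2.89 CPM in wild types, and Dnajc22, at 0.772 to 2.42 CPM in labelled knockouts and 1.40 to 1.98 CPM in wild types. Dnajc6 had the lowest log2 fold change after Hspa8, -0.24, with an SE of 0.29. Dnajc7, a J protein that binds both HSP70 and HSP90, was at 173 to 200.5 CPM in labelled knockouts and 175 to 190.1 CPM in wild types. Dnajc8 and Dnajc17, known from the spliceosome, were at -0.03 (SE 0.09) and 0.04 (SE 0.13) in log2 fold change. Dnajb2, Dnajb5, Dnajb12, Dnajc9, Dnajc12, Dnajc13, Dnajc14, Dnajc16, Dnajc24, Dnajc27, Hspb8 and Hspb11 had values between -0.11 and 0.10.

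The members varied more among the labelled knockouts than among the wild types. The median SD of log2(CPM + 0.5) over the 70 members was 0.23 in labelled knockouts and 0.08 in wild types, against 0.30 and 0.13 over all genes tested, and the SD was larger in labelled knockouts for 65 of 70 members (92.9%) and 84.9% of all genes tested. Single libraries therefore lay outside the wild-type range often and in different directions. In labelled knockout 4, 39 of 70 members lay above every wild type (55.7%, where 34.0% of all genes tested did) and 16 below (22.9%, against 33.9%), with those above including all 13 Dnajb genes and all 5 germ cell members. In labelled knockout 1, 31 of 70 lay above (44.3%, against 32.5% of all genes), with 11 of 13 Dnajb and 5 of 5 germ cell members, and 20 below (28.6%, against 32.0%), with 12 of 28 Dnajc and 4 of 7 endoplasmic reticulum members. In labelled knockout 3, 40 of 70 lay below every wild type (57.1%, against 36.1% of all genes), with 11 of 13 Dnajb and 4 of 5 germ cell members. Also below were 6 of 10 stress-inducible, 7 of 11 HSP70, 3 of 3 HSP110 and 14 of 28 Dnajc members. Above every wild type lay 18 (25.7%, against 33.5%), with 2 stress-inducible, 2 HSP70, 10 Dnajc and 4 of 7 endoplasmic reticulum members. Labelled knockout 2 had 22 above and 15 below (31.4% and 21.4%, against 26.3% and 26.4% of all genes).

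The median log2 deviation of the 5 germ cell members from the wild-type mean was 0.25, -0.15, -0.53 and 0.39 in labelled knockouts 1 to 4. For the 10 stress-inducible members it was 0.06, 0.01, -0.12 and 0.11, and for the 7 endoplasmic reticulum members -0.17, -0.04, 0.12 and -0.14. The germ cell median was thus furthest below wild type in labelled knockout 3, the library with the lowest elongating spermatid sum, 8145 CPM. It was furthest above in the 2 libraries with the highest, 19345 and 19901 CPM. In labelled knockout 3, 4 of the 5 germ cell members lay below every wild type. Hspa2 did not, at 100% of the wild-type mean there and 89.2% in labelled knockout 2. Round spermatid markers summed to 893, 873, 394 and 823 CPM in labelled knockouts 1 to 4, against 632 to 751 CPM in wild types, while spermatocyte markers lay between 1485 and 1789 CPM in labelled knockouts and between 1444 and 1786 CPM in wild types. The part of the cell types in the members' values was not tested.

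**Figure D3:**
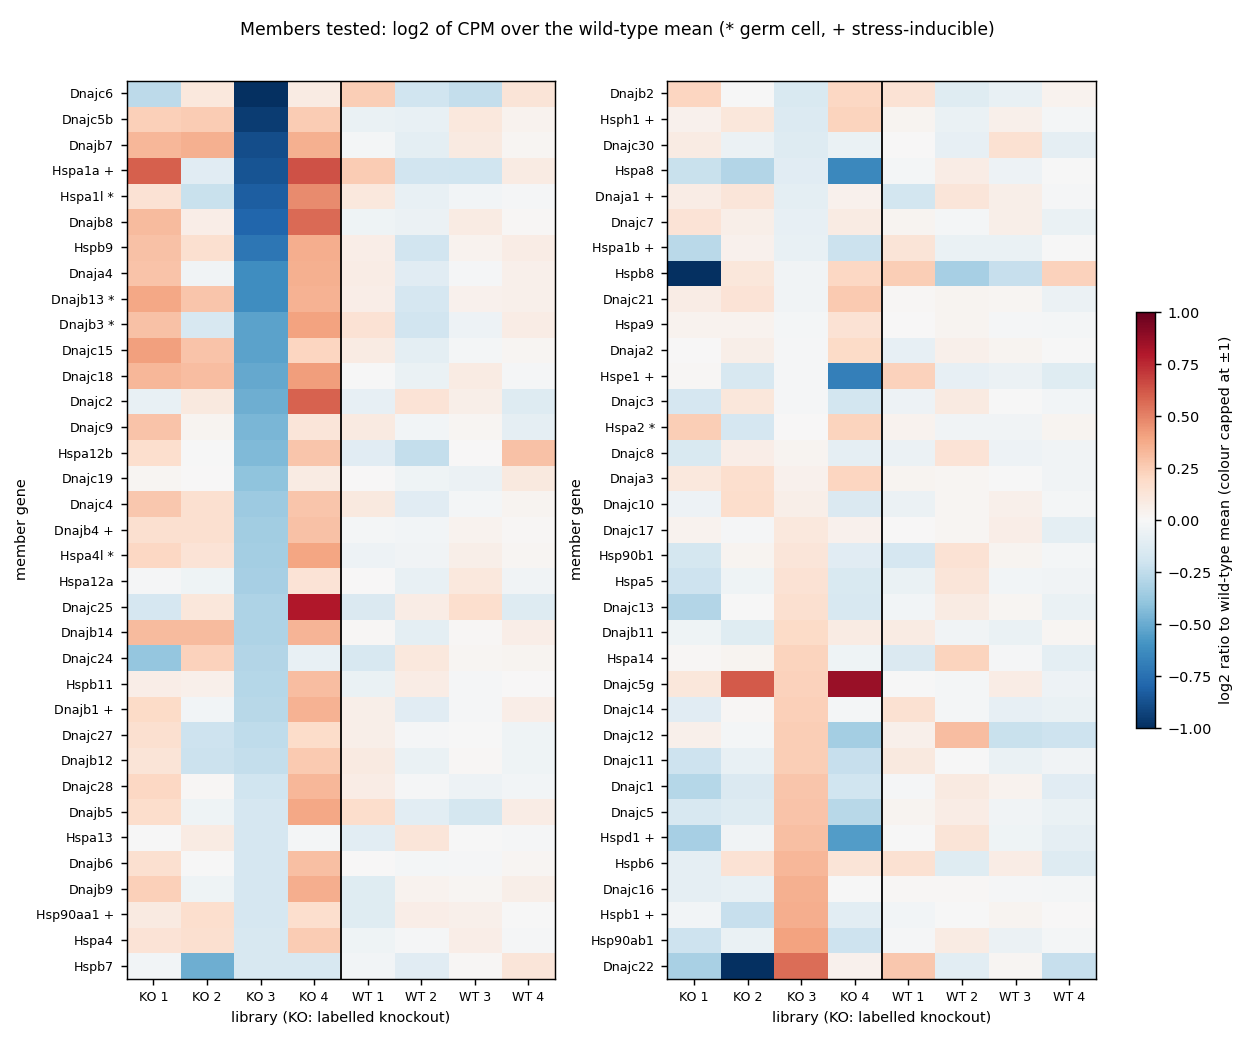
Log2 ratio of CPM to the wild-type mean for the 70 members tested (rows, ordered by labelled knockout 3) in labelled knockouts 1 to 4 (left 4 columns of each panel) and wild types 1 to 4 (right 4 columns), red above and blue below, with the colour capped at ±1. Labelled knockout 3 runs from Dnajc6 and Dnajc5b at the low end to Hsp90ab1 and Dnajc22 at the high end, and labelled knockouts 1 and 4 are mostly red where it is blue.

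With labelled knockout 3 left out, 18 of 70 members had an unadjusted p under 0.05 (25.7%, where 19.0% of 22131 genes tested did), 13 higher and 5 lower in the remaining labelled knockouts (where 10.0% and 9.0% of genes were), and 0 were called (smallest edgeR adjusted p = 0.0734, for Dnajc18, where 0.158% of all genes were called). The 13 held 5 Dnajb genes (Dnajb4, Dnajb7, Dnajb8, Dnajb13 and Dnajb14), Hspa4, Hspa4l, Hspb9 and the Dnajc genes Dnajc4, Dnajc5b, Dnajc5g, Dnajc15 and Dnajc18. The 5 lower ones were Hspa8, Hspd1, Hsp90ab1, Dnajc1 and Dnajc5. Over the 70 members the median log2 fold change was 0.07 without that library, against -0.01 over all genes. Leaving out any other single library gave 1 or 2 members at that level. All of the 13 except Dnajc5g had labelled knockout 3 as their lowest library. Removing such a library raises the fold change and narrows the spread, so these p-values are a description and lend no support to a group difference.

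Labelled knockout 4 stood apart in 2 Dnajc genes. Dnajc2, a J protein of the ribosome (known as MPP11 or zuotin), stood at 179, 202, 135 and 285 CPM in labelled knockouts, against 179, 207, 197 and 173 CPM in wild types. Dnajc25 stood at 11.9, 14.5, 10.8 and 23.4 CPM in labelled knockouts, against 12.1, 14.1, 15.1 and 12.2 CPM in wild types, so labelled knockout 4 was at 174% of the wild-type mean. Gm20503 overlaps 348 of 4542 exon bases of Dnajc25 on the same strand, where reads could be shared. Both genes were chosen after their values were seen, and neither passed the test (log2 fold changes 0.08, SE 0.19, and 0.17, SE 0.22).

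For levels of different genes set against each other, CPM per kb of merged exons (GENCODE M21) was used. In both groups the 4 highest members were Hspb9, Hsp90aa1, Dnajb3 and Hspa2, at 783, 640.3, 480.3 and 431 CPM per kb in labelled knockouts, against 739, 609.6, 465 and 406 CPM per kb in wild types. The next in wild types was Hspa5 at 171 CPM per kb, and Hspa8 stood at 53.5 CPM per kb in labelled knockouts and 66.1 CPM per kb in wild types. Hspa1a and Hspa1b stood at 0.960 and 1.46 CPM per kb in labelled knockouts and 0.845 and 1.59 CPM per kb in wild types.

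Ratios of germ cell genes, and of Hsp90aa1, to their relatives were taken within each library at these lengths. Hspa2 over Hspa8 was 8.54, 6.70, 6.63 and 11.2 in labelled knockouts 1 to 4, against 6.37, 5.70, 6.22 and 6.29 in wild types 1 to 4, so that each labelled knockout lay above every wild type. That order was not tested, since the pair was picked with the Hspa8 values known. The level of the Hspa2 ratio rests on merged exons of 2644 bases for Hspa2 and 4301 for Hspa8. Their coding sequences are 1902 and 1941 bases. Without length scaling, the wild-type means were 1073 CPM for Hspa2 and 284 CPM for Hspa8. Hspa1l over the sum of Hspa1a and Hspa1b was 24.3, 20.2, 16.3 and 29.3 in labelled knockouts, against 22.4, 23.9, 24.9 and 22.8 in wild types. Hspa4l over its relative Hspa4 was 1.30, 1.22, 1.10 and 1.37 in labelled knockouts, against 1.24, 1.22, 1.24 and 1.27 in wild types. The level of this ratio rests on merged exons of 11792 bases for Hspa4l and 5528 for Hspa4, whose coding sequences are 2517 and 2529 bases. Without length scaling, the wild-type means were 944 CPM for Hspa4l and 357 CPM for Hspa4. Hsp90aa1 over Hsp90ab1 was 6.31, 6.01, 3.46 and 6.67 in labelled knockouts, against 4.74, 5.08, 5.53 and 5.20 in wild types. In the last 3 ratios the groups overlapped and labelled knockout 3 was the lowest library. Coding sequence identity was 73.6% for Hspa2 and Hspa8 (longest shared run 20 bases), 82.8% for Hspa1l and Hspa1a (233 bases) and 65.9% for Hspa4l and Hspa4 (20 bases). Hspa1l and Hspa1b shared a run of up to 188 bases, so short reads could match Hspa1l and either of its relatives. No identity was computed for the HSP90 pair.

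**Figure D4:**
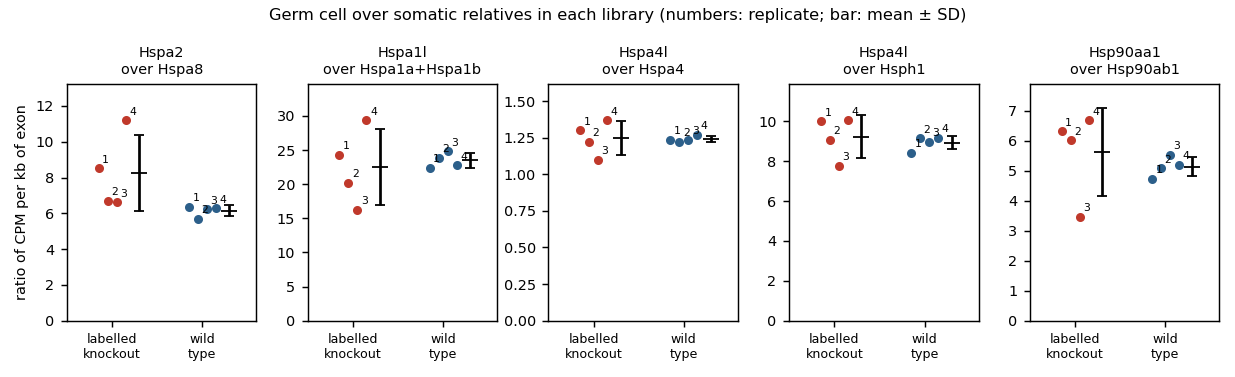
Ratio of CPM per kb of exon (vertical axes, from 0) of a gene over its relative in each labelled knockout (left) and wild type (right), with replicate numbers and the mean ± SD of 4 libraries. Hspa2 over Hspa8 averages 8.26 ± 2.14 in labelled knockouts and 6.15 ± 0.302 in wild types, and the other 4 ratios overlap between groups.

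Genes that act with the members but fall outside the symbols were 6 heat shock factors, 32 co-chaperones and relatives, and 9 subunits of the cytosolic chaperonin, of which 45 of 47 were tested. Of these 45, 0 were called and 1 passed an unadjusted p of 0.05, on the higher side, where 0.0183% of all genes tested were called, 3.04% passed that level and 1.25% did so on the higher side. The median log2 fold change was 0.05, against 0.01 over all genes tested, and the values ran from -0.74 to 0.42. The lowest was Cryaa, with 0, 51, 71 and 0 counts in labelled knockouts 1 to 4, against 42 to 67 counts in wild types (SE 0.87). The stress regulator Hsf1 stood at 34.4, 30.3, 40.5 and 36.9 CPM in labelled knockouts, against 35.5, 36.3, 34.1 and 36.0 CPM in wild types, a log2 fold change of 0.00 (SE 0.11). Hsf2, a factor active in spermatogenesis, was also at 0.00 (SE 0.16), and Hsf5, a factor of spermatocytes, at 0.17 (SE 0.13). Hsf3 and Hsf4 were below the filter. The gene under an unadjusted p of 0.05 was Hspbap1, which encodes a partner of HSPB1, at 22.7, 12.7, 17.7 and 22.6 CPM in labelled knockouts, against 14.6, 13.4, 13.4 and 15.2 CPM in wild types. Its log2 fold change was 0.42 (SE 0.18, edgeR unadjusted p = 0.0384 and adjusted p = 1). Bag3, an HSP70 co-chaperone and HSF1 target, was at 0.21 (SE 0.11). All 9 chaperonin subunits were above 0, with a median of 0.08.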

How the data were processed

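Adult mouse testes gave 8 RNA sequencing libraries, 4 per group. TRIzol was used to extract RNA, DNase to treat it and an Illumina TruSeq RNA kit for the libraries, per the labels' protocols. The authors deposited 1 table of raw counts by Ensembl gene, whole and not normalized. Trimmomatic, STAR, featureCounts and DESeq2 are named with the builds GRCm39 and mm39, per the submitters' processing notes. The sources used here give no versions, annotation release, strand setting or handling of multiply mapped reads.

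Symbols were matched for 52073 of 56748 identifiers. The members and gene lists were chosen with earlier results of these data known. Counts were filtered with filterByExpr (minimum count 10, minimum total 15), scaled by TMM and fitted across 21805 genes with edgeR 4.0.16 (limma 3.58.1, R 4.3.3) in a 2-group model, at an adjusted p threshold of 0.05. Each SE is the fold change over the square root of F. Alternatives were a replicate block, RLE factors, no filter, limma-voom, DESeq2 1.42.0, genes averaging 1 CPM or more, Hspa1a and Hspa1b summed, and each library left out. The fits were tested on simulated counts. Within a group, each pair of libraries differed by a chi-square of at least 4.52 per gene, so none was a copy of another. Exon lengths, overlaps and transcripts come from GENCODE M21 (GRCm38), another build than the authors', and promoters from RefSeq (GRCm38.p6). Identities are of the longest open reading frames, since protein sequences were not used here.

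Genes were named by a rule: the members of the germ cell, stress-inducible, endoplasmic reticulum and mitochondrial lists, 9 further testis or constitutive members, the 5 smallest p in each direction, the 3 highest CPM and members without overlap between groups. Other genes named were chosen after their values were seen.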

Additional observations from a re-analysis of the deposited data

Results flagged for a closer look

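In 86 groups of 4 values (43 named members, each in labelled knockouts and in wild types) 7 had a library separated from the other 3 by more than Dixon's 95% limit, where chance gives about 1 in 20 groups. Labelled knockout 3 was the separate library, on the low side, for Dnajb13 (136 CPM), Dnajb7 (70.6 CPM), Dnajc5b (102 CPM) and Dnajb14 (151 CPM). Among the wild types, wild type 2 was separate on the low side for Dnajb13 (186 CPM) and Hspb9 (471 CPM), and wild type 1 on the high side for Hspe1 (30.6 CPM). In labelled knockout 3 the round spermatid markers summed to 394 CPM, the lowest of the 8 libraries, and their part in the 4 values was not tested.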

How the results depend on the processing

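Under each of the alternatives 0 members were called, and the median log2 fold changes of all members (0.0011 to 0.07), the germ cell members (0.02 to 0.19) and the stress-inducible members (0.006 to 0.09) were above 0. Calls over all genes were 4, against 26 with no low-count filter, 46 by DESeq2 and 3 to 35 with a library left out (33 without labelled knockout 1, 35 without labelled knockout 3 and 33 without labelled knockout 4). Members at an unadjusted p under 0.05 were 2, against 1 to 18 with a library left out, the 18 without labelled knockout 3. Among 43 named members, 0 of 259 values with all libraries kept passed the adjusted threshold and 8 changed sign. Hspa1a, at 0.18 alone, was at -0.004 when summed with Hspa1b. Hspb1 was at -0.0004 in limma-voom. Hsp90ab1 was at -0.0195 with the replicate block, -0.0092 with no filter, -0.0021 at a mean of at least 1 CPM and -0.0192 in limma-voom. Dnajc5b was at -0.0384 with the replicate block and -0.0468 in limma-voom.

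Leaving out each library gave 344 log2 fold changes, 0 past the threshold and 30 of the other sign in 17 genes. Their ranges were -0.25 to 0.14 for Hspa1l, -0.0949 to 0.19 for Dnajb3, -0.13 to 0.0817 for Hspb1, -0.0272 to 0.17 for Dnajb1, -0.021 to 0.0749 for Dnaja1 and -0.30 to 0.0027 for Hspd1. They were -0.099 to 0.0196 for Hsp90b1, -0.0373 to 0.0684 for Dnajb11, -0.0527 to 0.0651 for Dnajc10, -0.11 to 0.0214 for Dnajc19, -0.18 to 0.0019 for Dnajc11 and -0.0863 to 0.0169 for Dnajc30. They were -0.17 to 0.069 for Hsp90ab1, -0.017 to 0.14 for Hspa14, -0.0252 to 0.26 for Hspb9, -0.0657 to 0.32 for Dnajb8 and -0.0714 to 0.24 for Dnajc5b. The cause was not tested. Dnajc5g ranged from 0.33 to 0.58 and Hspa8 from -0.39 to -0.21.

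Over all genes, the deviations of same-numbered libraries from their group means correlated at 0.081, 0.043, -0.022 and 0.03. These values show no strong pairing by number. A weak pairing could be missed beside the wide spread among the labelled knockouts, so whether the numbers pair libraries stays unknown. With the replicate block, calls over all genes were 4 and member calls 0, with Dnajc5g at 0.46 and Hspa8 at -0.32 (edgeR adjusted p = 0.9999 for each). Depth limits the members with a mean under 5 CPM, Hspa1a, Hspa1b, Hspb8, Dnajc6, Dnajc12 and Dnajc22, whose SE was up to 0.32.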
